A study of Mus musculus with 24 samples.

Results

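Ataxin-2 (Atxn2), its paralog ataxin-2-like (Atxn2l) and 5 genes for proteins that bind ataxin-2 or the poly(A)-binding protein were followed in mouse Neuro2A cells in which the ataxin-2 transcript was targeted. The 7 genes were taken by symbol from the 39253 genes of the count table: Atxn2 (Entrez Gene 20239), Atxn2l (233871), Pabpc1 (18458), Pabpc4 (230721), Lsm12 (268490), Paip1 (218693) and Paip2 (67869). All 7 were among the 13899 genes that passed the filter on low counts. Atxn2 is the direct target, so its fall is a check of the labels, and the other 6 genes were not targeted.

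Neuro2A is a mouse neuroblastoma line of wild-type genotype. RNA-seq was analysed for 24 samples in 8 groups of 3, which the submitters describe as biological replicates. Of the groups 6 were transiently transfected with a plasmid for an RNA-targeting CRISPR effector and its CRISPR RNA (crRNA), and were collected 48 hr later. The effectors were RfxCas13d, a Cas13d nuclease, HiFi-RfxCas13d, a variant of it made to cleave fewer bystander RNAs, and DiCas7-11, a type III-E effector. Each was given with a crRNA against mouse ataxin-2 (mATXN2) or with a non-targeting crRNA (NTG). The columns of the table name the control arm EV and the targeting arm G12, where the labels have NTG and G10, so what the control plasmid carried is not settled by these sources, and it is called NTG here. The remaining groups were untransfected cells and an ASO group, which received an antisense oligonucleotide to ataxin-2. Its dose and delivery are not given in the sources used here, and neither a control oligonucleotide nor a mock transfection was among the samples. The share of cells that took up a plasmid or the ASO was not given in the sources used here, so a change in a few cells and a smaller change in all cells cannot be told apart.

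Ataxin-2 is an RNA-binding protein of the cytoplasm and of stress granules. Its LSm and LSm-associated domains contact RNA and RNA helicases, and a short motif (PAM2) near its C-terminal end binds the MLLE domain of the poly(A)-binding protein PABPC1, which coats the poly(A) tail of mRNA and links it to translation initiation. Ataxin-2-like shares this layout. A polyglutamine tract of ataxin-2 is expanded in spinocerebellar ataxia and, at intermediate length, raises the risk of amyotrophic lateral sclerosis, a disease in which lowering ataxin-2 has been pursued. PAIP1 binds PABPC1 and stimulates translation, PAIP2 binds it and displaces it from poly(A), PABPC4 is a second cytoplasmic poly(A)-binding protein, and LSM12 is an LSm-domain protein found with ataxin-2.

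The samples held 12665725 to 22504999 counts, with the ASO samples the deepest (21874644 or more). The 7 genes together held 0.240% to 0.270% of the counts, and each had at least 1095 counts in every sample. The markers of the line were present, with 12 of 14 neuroblastoma markers tested and a summed level of 2763 to 3039 CPM (counts per 1000000 counts of the library) in the group means, although Nefl and Nefm were near 0. Of 11 markers of fibroblasts and glia 3 passed the filter, and their list summed to 16.0 to 21.3 CPM, most of it Mbp (9.87 to 12.8) and Pdgfra (4.54 to 6.30). The NTG samples of DiCas7-11 stood apart in their spread. Over genes, pairs of them differed by 3.53 to 6.11 times counting noise in chi-square, against 1.66 to 2.70 times for the 21 pairs in the other groups, and member results whose call changed without 1 of them are given both ways.

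Per kilobase of transcript, PABPC1 was the most abundant of the 7 transcripts in untransfected cells. Levels between genes are given as CPM per kilobase of the transcript with the longest coding sequence. Pabpc1 stood at 582 ± 9.41 (SD, n = 3), followed by Paip2 (113), Paip1 (88.5), Lsm12 (71.1), Atxn2l (64.2), Pabpc4 (59.3) and Atxn2 (27.6). Pabpc1 was thus 9.82 times as abundant per length as Pabpc4, and Atxn2l 2.33 times as abundant as Atxn2. The other cytoplasmic poly(A)-binding proteins contributed almost nothing: Pabpc2, Pabpc5, Pabpc6, Pabpc1l2a and Pabpc1l2b had 0 counts in all 24 samples, Pabpc1l had at most 11.3 counts and Pabpc4l at most 2.10.

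The members differ in how unique their transcript sequences are. Of the 31-base words in the protein-coding transcripts of Pabpc4 79.4% also occur in other annotated genes, nearly all of them in the Pabpc4-like sequence Gm10110, and the share was 31.1% for Pabpc1, 15.9% for Lsm12 and under 1% or 0 for Atxn2 (0.633%), Paip1 (0.343%), Atxn2l and Paip2. The 7 genes share 0 words with each other, so that reads of Atxn2 and Atxn2l are not exchanged. The values of Pabpc4, Pabpc1 and Lsm12 are uncertain to the extent that the near-identical copies are transcribed. The sequences sharing most words with them (Gm10110, Gm16580 and Gm9727) are not among the counted genes under these names. The words come from another annotation than the one the reads were counted against, so the shares do not measure how these reads were assigned. Of genes that overlap a member, 4930456A14Rik (Atxn2l) was listed at 0 and Slc23a1 (Paip2) reached 0.421 CPM.

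**Figure D1:**
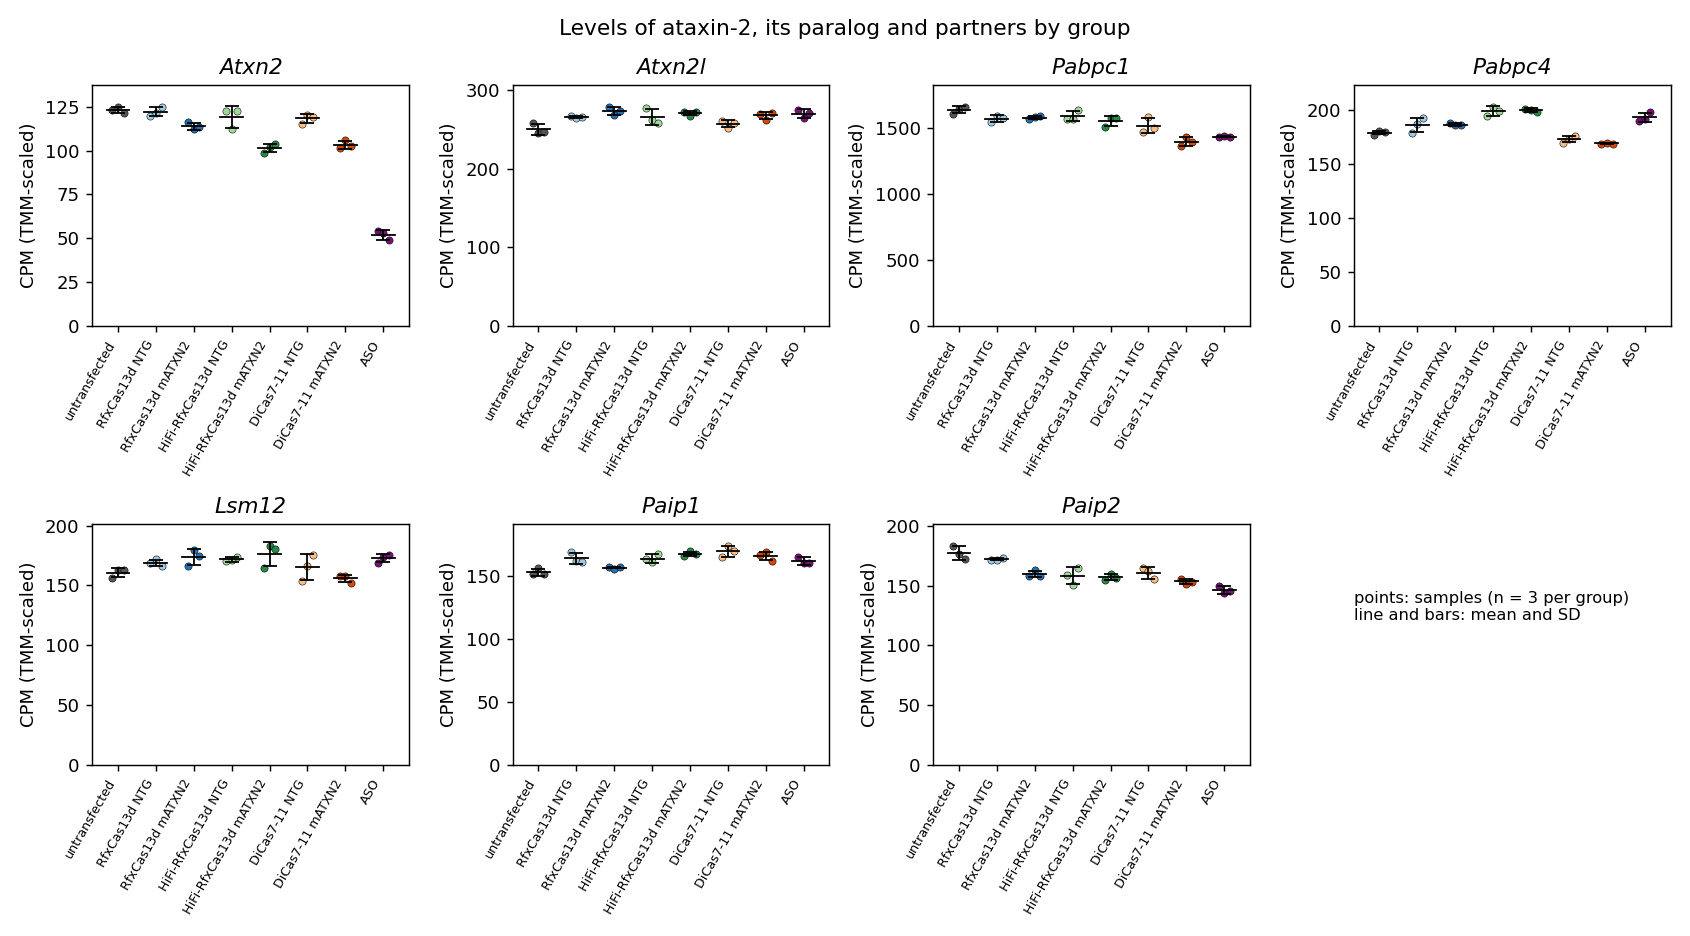
Level of each of the 7 genes in CPM scaled by TMM (y axis, from 0) in the 8 groups (x axis); points are samples, lines and bars the mean and SD of 3 samples. Atxn2 stands near 52.0 in the ASO group and at 101 to 123 in the other group means, whereas each of the other 6 genes varies by at most 1.28 times between its lowest and highest sample.

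The first question was how far the ataxin-2 transcript fell. Atxn2 was lower with the mATXN2 crRNA than with the NTG crRNA in all 3 effectors, by 6.87% to 14.8%, and 57.8% lower with the ASO. With HiFi-RfxCas13d its level was 122.9, 112 and 123 CPM in the NTG samples and 98.8, 102 and 104 CPM in the mATXN2 samples. With DiCas7-11 it was 115, 121 and 119 CPM with NTG and 101, 106 and 102 CPM with mATXN2. With RfxCas13d it was 119.8, 122 and 125 CPM with NTG and 116, 112 and 113 CPM with mATXN2. In each effector every mATXN2 sample lay below every NTG sample, and the gap was narrowest for RfxCas13d.

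The fitted log2 fold change was -0.23 ± 0.04 (SE, n = 3 against 3) with HiFi-RfxCas13d (adjusted p = 0.00137, edgeR quasi-likelihood test with Benjamini-Hochberg adjustment), -0.20 ± 0.04 with DiCas7-11 (adjusted p = 0.00316) and -0.10 ± 0.04 with RfxCas13d (adjusted p = 0.171, unadjusted p = 0.00853). The value of RfxCas13d did not pass the threshold of 0.05, although its 95% interval lay below 0 (a fall of 11.6% to 1.90%). Over all genes tested 0.0144% were called lower with HiFi-RfxCas13d, 0.468% with DiCas7-11 and 0.532% with RfxCas13d. These shares hang on single libraries: the 65 genes called lower with DiCas7-11 became 0 without NTG replicate 2 and 445 without NTG replicate 1, and the 74 with RfxCas13d became 11 without mATXN2 replicate 3. In the p-value order of all genes Atxn2 ranked 2 with HiFi-RfxCas13d, 14 with DiCas7-11 and 694 with RfxCas13d.

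Averaged over the effectors, Atxn2 fell by 0.18 ± 0.02 on the log2 scale (11.6% lower, 95% interval of the change -14.2% to -8.90%, adjusted p = 3.15e-07), where 2.38% of genes were called lower. The response did not pass the test for a difference between effectors: the difference of HiFi-RfxCas13d from RfxCas13d was -0.13 ± 0.05 (unadjusted p = 0.0192, adjusted p = 0.782), that of DiCas7-11 from RfxCas13d was -0.10 ± 0.05 (adjusted p = 0.716) and that of HiFi-RfxCas13d from DiCas7-11 was -0.03 ± 0.05 (adjusted p = 0.95). In these comparisons edgeR called 0 genes (0% of those tested) at the adjusted threshold and 822, 1026 and 1000 genes at an unadjusted p under 0.05, and DESeq2 called 0, 3 and 3. The DiCas7-11 call for Atxn2 was lost without NTG replicate 2 (adjusted p = 0.0687, log2 fold change -0.19) and when the fit held only the 2 groups (adjusted p = 0.0543).

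With the ASO, Atxn2 stood at 54.1, 52.9 and 48.8 CPM against 123, 125 and 121 CPM in untransfected cells. The groups were far apart, and the log2 fold change of -1.25 ± 0.04 had the lowest p-value of all 13899 genes (adjusted p = 1.84e-26). Here 21.7% of genes were called lower and 42.7% in either direction, so a call by itself says little in this comparison. In order of group means, untransfected cells and the 3 NTG groups overlapped as neighbours (118 to 123 CPM), the NTG group of DiCas7-11 overlapped RfxCas13d with mATXN2 (114), and DiCas7-11 and HiFi-RfxCas13d with mATXN2 (103 and 101 CPM) overlapped each other but not the groups above or below them. None of the 3 NTG groups passed the test against untransfected cells for Atxn2 (adjusted p = 0.288 to 0.880), and its mean was -0.06 to -0.01 away on the log2 scale.

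The next question was whether the paralog rose as Atxn2 fell. With the ASO Atxn2l rose by 7.98%, and with the mATXN2 crRNA it was 1.84% to 4.20% higher without passing the threshold in any effector. Atxn2l measured 258, 245 and 247 CPM in untransfected cells and 275, 264 and 271 CPM with the ASO, with no overlap. The log2 fold change was 0.11 ± 0.03 (adjusted p = 0.00109), where 21% of genes were called higher. The NTG groups had risen as well: against untransfected cells Atxn2l was 0.09 ± 0.03 higher with RfxCas13d (adjusted p = 0.0409) and 0.09 ± 0.03 higher with HiFi-RfxCas13d (adjusted p = 0.0218), in cells whose Atxn2 had not passed the test, and 0.04 ± 0.03 higher with DiCas7-11 (adjusted p = 0.357). Set against the mean of the 3 NTG groups, a comparison added after the data were seen, the ASO samples were 0.04 ± 0.02 higher (adjusted p = 0.150), where 40.1% of genes were called.

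With the mATXN2 crRNA Atxn2l stood at 279, 268 and 273 CPM for RfxCas13d against 266, 264 and 265 CPM with NTG, and at 270, 262 and 271 CPM for DiCas7-11 against 261, 252 and 258 CPM. In both the 3 targeted samples lay above the 3 control samples. HiFi-RfxCas13d gave 272, 267 and 272 CPM against 277, 262 and 258 CPM, and its groups overlapped. The log2 fold changes were 0.04 ± 0.03, 0.06 ± 0.03 and 0.03 ± 0.03 in that order (adjusted p = 0.555, 0.329 and 0.915), and the mean over effectors was 0.04 ± 0.02 (a rise of 2.99%, 95% interval 0.694% to 5.33%, unadjusted p = 0.0117, adjusted p = 0.123). These percents do not have the base of the 11.6% fall of Atxn2, since Atxn2l was the more abundant transcript. They therefore do not show how much of that fall was made up. In CPM the mean rise of Atxn2l was 56.2% of the mean fall of Atxn2 (94.1% with RfxCas13d, 26.9% with HiFi-RfxCas13d and 69.9% with DiCas7-11). No interval was computed for this share.

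**Figure D2:**
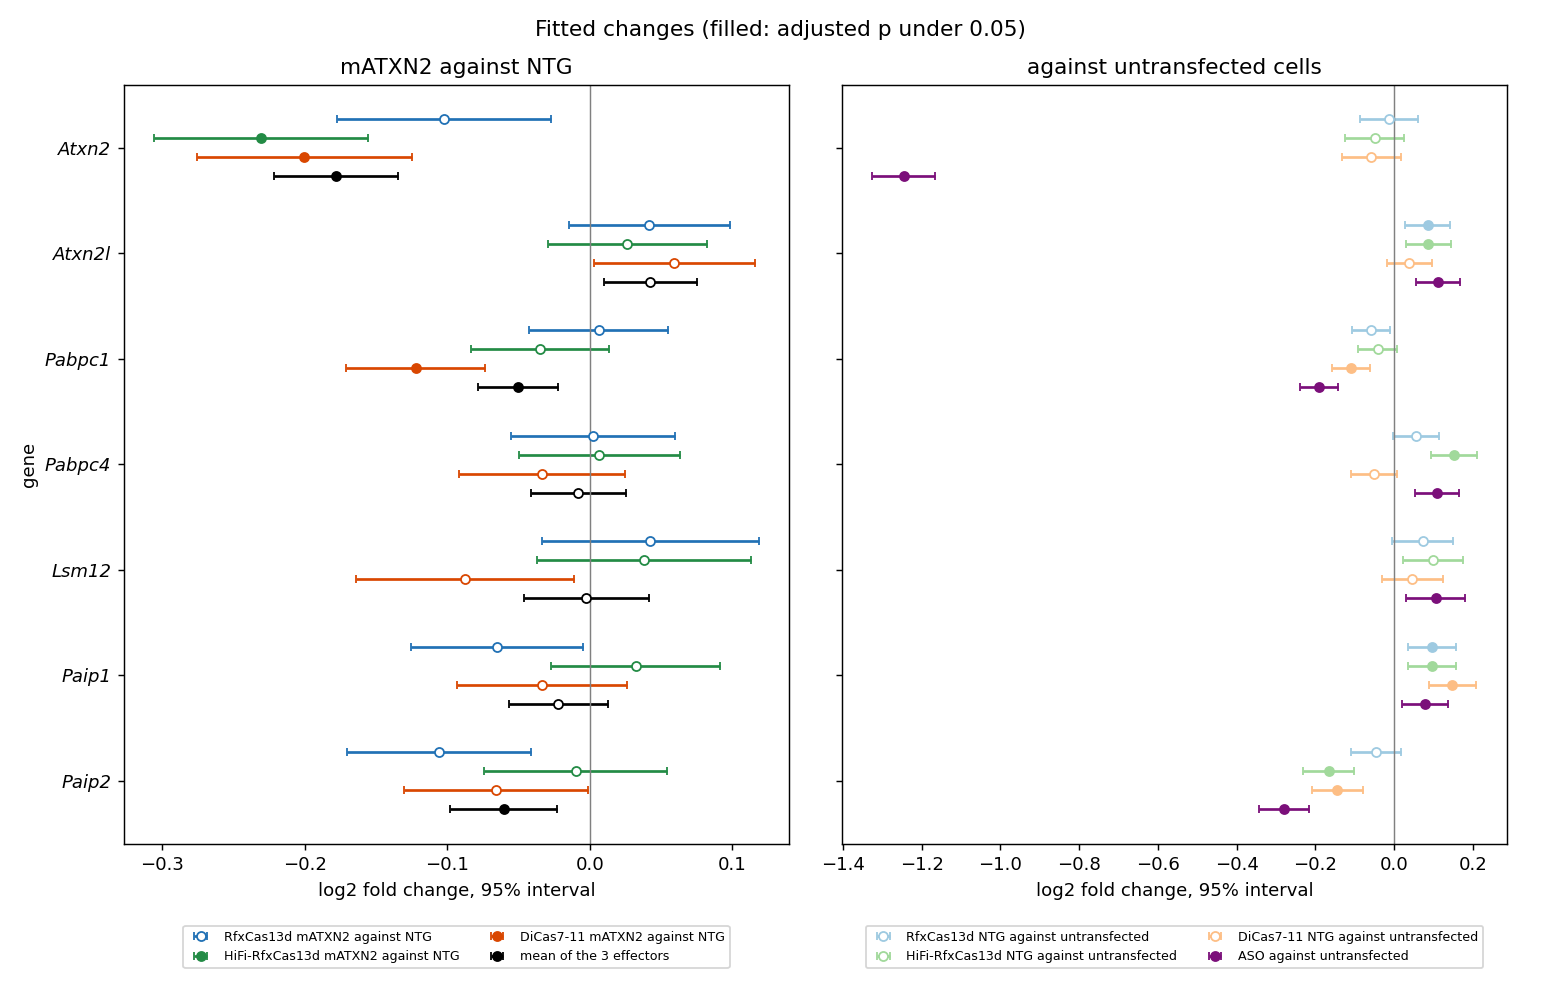
Fitted log2 fold change with 95% interval (x axis) of each gene (y axis), for mATXN2 against NTG by effector and on average (left) and for the NTG groups and the ASO against untransfected cells (right); filled points have an adjusted p under 0.05. Atxn2 lies at -1.25 with the ASO and between -0.23 and -0.10 with the effectors, and no other gene exceeds 0.28 in size.

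Because both paralogs are read in the same library, their ratio does not depend on scaling between libraries, and it shows how their balance shifted. The log2 ratio of Atxn2l to Atxn2 counts was 1.02 ± 0.0449 (SD, n = 3) in untransfected cells and 2.38 ± 0.0837 with the ASO, a difference of 1.36. With RfxCas13d it was 1.12 ± 0.0340 with NTG and 1.26 ± 0.00706 with mATXN2, with HiFi-RfxCas13d 1.16 ± 0.0763 and 1.41 ± 0.0392, and with DiCas7-11 1.12 ± 0.0568 and 1.37 ± 0.0590. In all 4 comparisons every treated sample lay above every control sample. A two-sided exact permutation test of 3 against 3 samples gave p = 0.1 in each, the smallest value it allows. Over the 3 effectors, permuted within effector in 8000 arrangements, the mean difference of 0.22 had an exact p = 0.00025, also the smallest possible (0.00125 adjusted over 5 tests). The ratio mixes both genes, and most of its change in each comparison came from the fall of Atxn2 given above.

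The summed level of the paralogs addresses how much of the fall was made up. The sum of Atxn2 and Atxn2l was 373 ± 6.72 CPM in untransfected cells and 322 ± 6.30 CPM with the ASO, lower in every sample by 51.3 CPM in the mean: Atxn2 differed by -71.3 CPM and Atxn2l by 20.0 CPM. Per kilobase of transcript the differences were -15.9 and 5.13 CPM. With RfxCas13d the sum was 387 ± 2.42 CPM with NTG and 387 ± 7.44 with mATXN2, with HiFi-RfxCas13d 385 ± 13.5 and 372 ± 3.70, and with DiCas7-11 375 ± 2.46 and 371 ± 2.58. In all 3 effectors the samples of both arms overlapped. The mean difference over effectors was -6.03 CPM (two-sided exact permutation test, p = 0.0585, adjusted over 5 tests 0.25), made of -13.8 CPM for Atxn2 and 7.74 CPM for Atxn2l (-3.08 and 1.99 CPM per kilobase). The ASO difference had an exact p = 0.1, the smallest that 3 against 3 allows. The sign of the RfxCas13d difference in the sum (-0.488 CPM) turned when counts were divided by coding length.

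**Figure D3:**
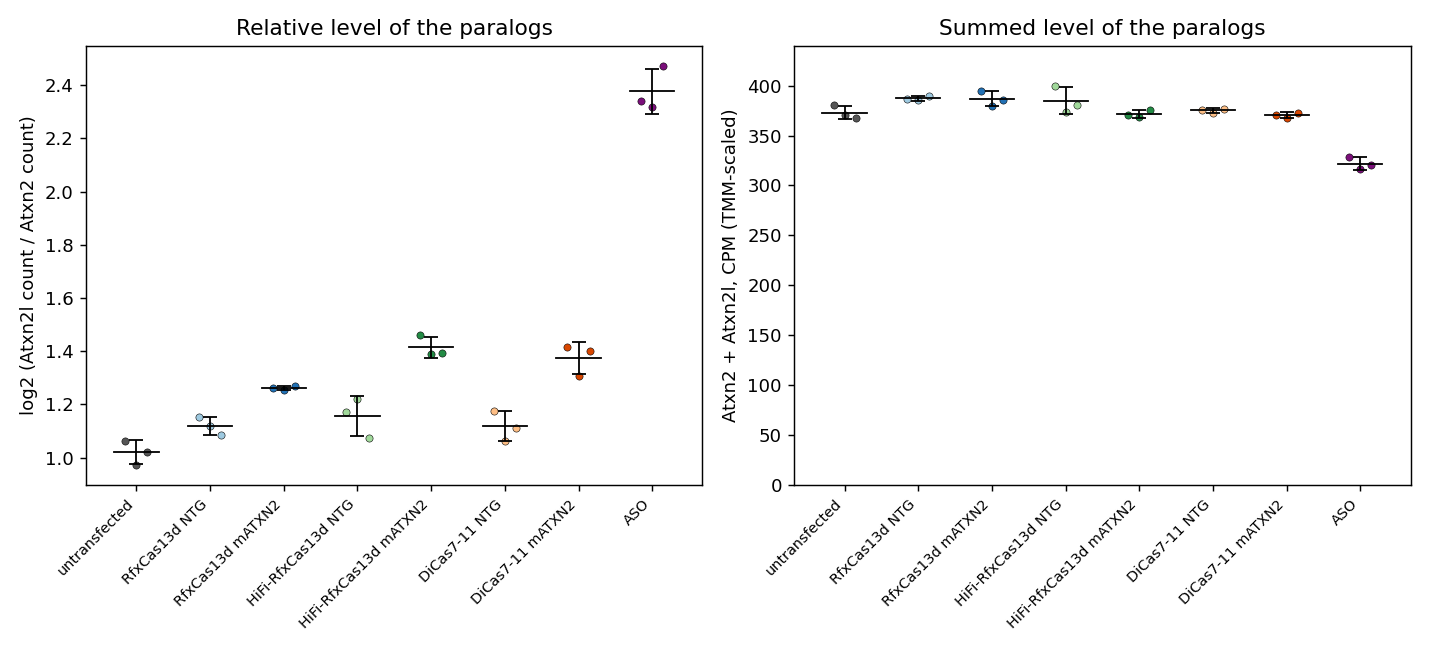
Log2 ratio of Atxn2l to Atxn2 counts (left, y axis not from 0) and their summed level in CPM (right, from 0) by group; points are samples, lines and bars the mean and SD of 3 samples. The ratio rises from 1.02 in untransfected cells to 2.38 with the ASO while the sum falls from 373 to 322 CPM, and with the effectors the sum stays between 371 and 387 CPM in the group means.

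The poly(A)-binding proteins did not rise as a pair. Pabpc1, the main cytoplasmic one, fell by 12.4% with the ASO and by 8.11% with DiCas7-11 and the mATXN2 crRNA, whereas Pabpc4 rose by 7.89% with the ASO and passed no test between mATXN2 and NTG. Pabpc1 measured 1611, 1646 and 1663 CPM in untransfected cells and 1435, 1444 and 1432 CPM with the ASO. The groups did not overlap, and the log2 fold change was -0.19 ± 0.02 (adjusted p = 1.62e-08). Against the mean of the NTG groups it was -0.12 ± 0.02 (adjusted p = 3.15e-06).

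With DiCas7-11 Pabpc1 measured 1475, 1587 and 1499 CPM with NTG and 1364, 1433 and 1396 CPM with mATXN2, again without overlap. The log2 fold change was -0.12 ± 0.02 (adjusted p = 0.00521), but the call was lost without NTG replicate 2 (-0.09, adjusted p = 0.115), without mATXN2 replicate 1 (-0.10, adjusted p = 0.103), and in a fit of the 2 groups alone (adjusted p = 0.297). With RfxCas13d it was 0.01 ± 0.02 (adjusted p = 0.949) and with HiFi-RfxCas13d -0.04 ± 0.02 (adjusted p = 0.835), in groups that overlapped. The DiCas7-11 response differed from the RfxCas13d response by -0.13 ± 0.03 at an unadjusted p = 0.000532, the 24th lowest of all genes, and did not pass after adjustment (adjusted p = 0.301). The mean over the effectors was -0.05 ± 0.01 (adjusted p = 0.0223), and this call was lost when coding length was corrected for (adjusted p = 0.0744) and without any of 4 libraries: HiFi-RfxCas13d NTG replicate 3 (0.0654) and mATXN2 replicate 1 (0.0578), and DiCas7-11 NTG replicate 2 (0.0528) and mATXN2 replicate 1 (0.0567). Compared with untransfected cells Pabpc1 was already 0.11 ± 0.02 lower in the NTG group of DiCas7-11 (adjusted p = 0.000839).

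Pabpc4 was the 1 member whose level passed a test between the NTG groups of different effectors. It measured 177.1, 180.3 and 179 CPM in untransfected cells, 194, 203 and 199 CPM with HiFi-RfxCas13d and NTG, and 169, 173 and 175 CPM with DiCas7-11 and NTG. All HiFi-RfxCas13d samples lay above and all DiCas7-11 samples below the untransfected ones. Against untransfected cells Pabpc4 rose by 0.15 ± 0.03 with HiFi-RfxCas13d (adjusted p = 0.000114), while its log2 fold change was -0.05 ± 0.03 with DiCas7-11 (adjusted p = 0.230) and 0.06 ± 0.03 with RfxCas13d (adjusted p = 0.218). In comparisons added after the data were seen, the NTG group of HiFi-RfxCas13d stood 0.20 ± 0.03 above that of DiCas7-11 (adjusted p = 1.77e-05), where 0.871% of genes were called, and that of DiCas7-11 stood 0.11 ± 0.03 below that of RfxCas13d (a change of -0.11, adjusted p = 0.0274), where 3.53% were called. HiFi-RfxCas13d stood 0.10 ± 0.03 above RfxCas13d (adjusted p = 0.124, 0.655% of genes called). The call between DiCas7-11 and RfxCas13d was lost without RfxCas13d NTG replicate 2 (adjusted p = 0.0843) or 3 (0.181), or DiCas7-11 NTG replicate 2 (0.0682). The mATXN2 samples kept the same order, at 201, 200.2 and 198 CPM for HiFi-RfxCas13d, 188, 186 and 186 CPM for RfxCas13d and 168, 169.7 and 168 CPM for DiCas7-11, so that each targeted group lay close to its own control. The log2 fold changes of mATXN2 against NTG were 0.00 ± 0.03 with RfxCas13d, 0.01 ± 0.03 with HiFi-RfxCas13d and -0.03 ± 0.03 with DiCas7-11 (adjusted p = 0.680 to 0.986), and the mean over effectors had a 95% interval of -2.83% to 1.75%.

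With the ASO Pabpc4 measured 190, 192 and 198 CPM, above all untransfected samples, and its log2 fold change was 0.11 ± 0.03 (adjusted p = 0.00143). Against the mean of the NTG groups it was 0.06 ± 0.02 (adjusted p = 0.0390). In absolute terms the rise of Pabpc4 was 4.68 CPM per kilobase, beside a fall of Pabpc1 of 72.0 CPM per kilobase (a difference of -72.0).

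The regulators of PABPC1 went in opposite directions against untransfected cells. Paip2, the inhibitor, fell by 17.6% with the ASO, and Paip1, the activator, rose by 5.65%. Paip2 measured 183, 176 and 172 CPM in untransfected cells and 149.7, 144 and 145 CPM with the ASO, which did not overlap (-0.28 ± 0.03, adjusted p = 1.01e-09). It was also lower in the NTG groups of HiFi-RfxCas13d (159, 151 and 165 CPM, -0.17 ± 0.03, adjusted p = 0.000154) and DiCas7-11 (165, 162 and 155 CPM, -0.14 ± 0.03, adjusted p = 0.000878). The NTG group of RfxCas13d overlapped untransfected cells and did not pass (-0.05, adjusted p = 0.409). Against the mean of the NTG groups the ASO samples remained lower, at -0.16 ± 0.03 (adjusted p = 1.59e-06). Paip2 thus had the ASO group lowest of all 8 groups, with no overlap with its neighbour in the order.

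With the mATXN2 crRNA Paip2 showed its largest difference in RfxCas13d, at 158, 163 and 158 CPM against 172, 171 and 173 CPM with NTG. The groups did not overlap, and the log2 fold change of -0.11 ± 0.03, as large as that of Atxn2 in the same samples, had an adjusted p = 0.0836. It passed with DESeq2 (0.0488), limma-trend adjusted over 10 comparisons together (0.0183), only the 2 groups in the fit (0.0274) and the coding length correction (-0.15, adjusted p = 0.00752). With 1 library left out it passed in 0 of 6 fits (adjusted p = 0.102 to 0.232). Mean Paip2 was 172 CPM in the RfxCas13d NTG group, 158 and 161 CPM in those of HiFi-RfxCas13d and DiCas7-11, and 160 CPM in the targeted RfxCas13d group. In comparisons added after the data were seen, HiFi-RfxCas13d NTG stood -0.12 ± 0.03 from RfxCas13d NTG (adjusted p = 0.0615, edgeR) and DiCas7-11 NTG -0.10 ± 0.03 (0.0805). The log2 fold change of Paip2 was -0.01 with HiFi-RfxCas13d (adjusted p = 0.978) and -0.07 with DiCas7-11 (adjusted p = 0.353). The mean over the effectors fell by 0.06 ± 0.02 (adjusted p = 0.0420), and this call was lost when 11 of the 18 libraries were left out in turn (adjusted p up to 0.125, without HiFi-RfxCas13d NTG replicate 3) and when no filter on low counts was used (adjusted p = 0.0582).

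Paip1 measured 151, 156 and 152 CPM in untransfected cells and 165, 160.2 and 160.2 CPM with the ASO. The log2 fold change was 0.08 ± 0.03 (adjusted p = 0.0258), lost without untransfected replicate 1 (0.0690) or 3 (0.0640) or ASO replicate 1 (0.101). All 3 NTG groups rose against the same untransfected samples, by 0.10 ± 0.03 with RfxCas13d (adjusted p = 0.0288), 0.10 ± 0.03 with HiFi-RfxCas13d (0.0164) and 0.15 ± 0.03 with DiCas7-11 (0.000279). With the NTG groups as baseline the ASO samples were not higher (-0.04 ± 0.02, adjusted p = 0.239), so the direction of Paip1 with the ASO turned with the control. Without untransfected replicate 1 or 3 the calls with RfxCas13d (0.0890 and 0.0791) and HiFi-RfxCas13d (0.0649 and 0.0547) were lost, as they were without NTG replicate 1 of RfxCas13d (0.140) and NTG replicate 3 of HiFi-RfxCas13d (0.0906). Between mATXN2 and NTG Paip1 passed no test (adjusted p = 0.322 to 0.903), although the RfxCas13d samples with mATXN2 (157, 156 and 157 CPM) lay below those with NTG (169, 162 and 161 CPM).

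Lsm12, the LSm-domain partner, was 7.61% higher with the ASO. It measured 156, 162 and 163 CPM in untransfected cells and 169, 173 and 175 CPM with the ASO (0.11 ± 0.04, adjusted p = 0.0187). The call was lost without untransfected replicate 1 (0.0866) or ASO replicate 3 (0.0685), with limma-trend (0.0675), and against the mean of the NTG groups (0.03 ± 0.03, adjusted p = 0.391). With the mATXN2 crRNA the log2 fold change was 0.04 ± 0.04 with RfxCas13d, the same with HiFi-RfxCas13d, and -0.09 ± 0.04 with DiCas7-11 (adjusted p = 0.694, 0.912 and 0.281), and the mean over effectors was -0.00 ± 0.02. Without DiCas7-11 NTG replicate 1, the sample with the lowest Lsm12 of that group (154 CPM against 166 and 176), the DiCas7-11 difference was -0.13 and passed the threshold (adjusted p = 0.0271).

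Counted over the 7 genes, calls between mATXN2 and NTG were few. None passed with RfxCas13d (1.5% of all genes did, 13.6% at an unadjusted p under 0.05, which 3 of the 7 reached), and DESeq2 and limma-trend, the latter adjusted over 10 comparisons together, each called 1, Paip2. With HiFi-RfxCas13d 1 passed (Atxn2, against 0.201% of genes), with DiCas7-11 2 (Atxn2 and Pabpc1, against 0.95%, or 132 genes, which became 8 without NTG replicate 2 and 682 without NTG replicate 1) and on average 3 (Atxn2, Pabpc1 and Paip2, against 5.38%), all of them lower. Their samples did not overlap for 4 of 7 genes with RfxCas13d (20.3% of all genes), 1 with HiFi-RfxCas13d (13.2%) and 4 with DiCas7-11 (14.5%).

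With the ASO all 7 genes passed, 4 higher and 3 lower, where 42.7% of all genes did, and 7 did not overlap (51.8%). Against untransfected cells 2 genes passed with RfxCas13d and NTG (11.4%), 4 with HiFi-RfxCas13d (21.1%) and 3 with DiCas7-11 (22.2%), and 4, 5 and 5 did not overlap (28.5%, 35.6% and 31.9%). These 4 comparisons share the untransfected samples. The calls for Atxn2l in the NTG groups were sensitive to single libraries. That of RfxCas13d was lost without any of its own 3 NTG samples (adjusted p = 0.0936, 0.0699 and 0.0788) or untransfected replicate 2 (0.161) or 3 (0.116), and that of HiFi-RfxCas13d without its NTG replicate 1 (0.189) or untransfected replicate 2 (0.107) or 3 (0.0801).

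**Figure D4:**
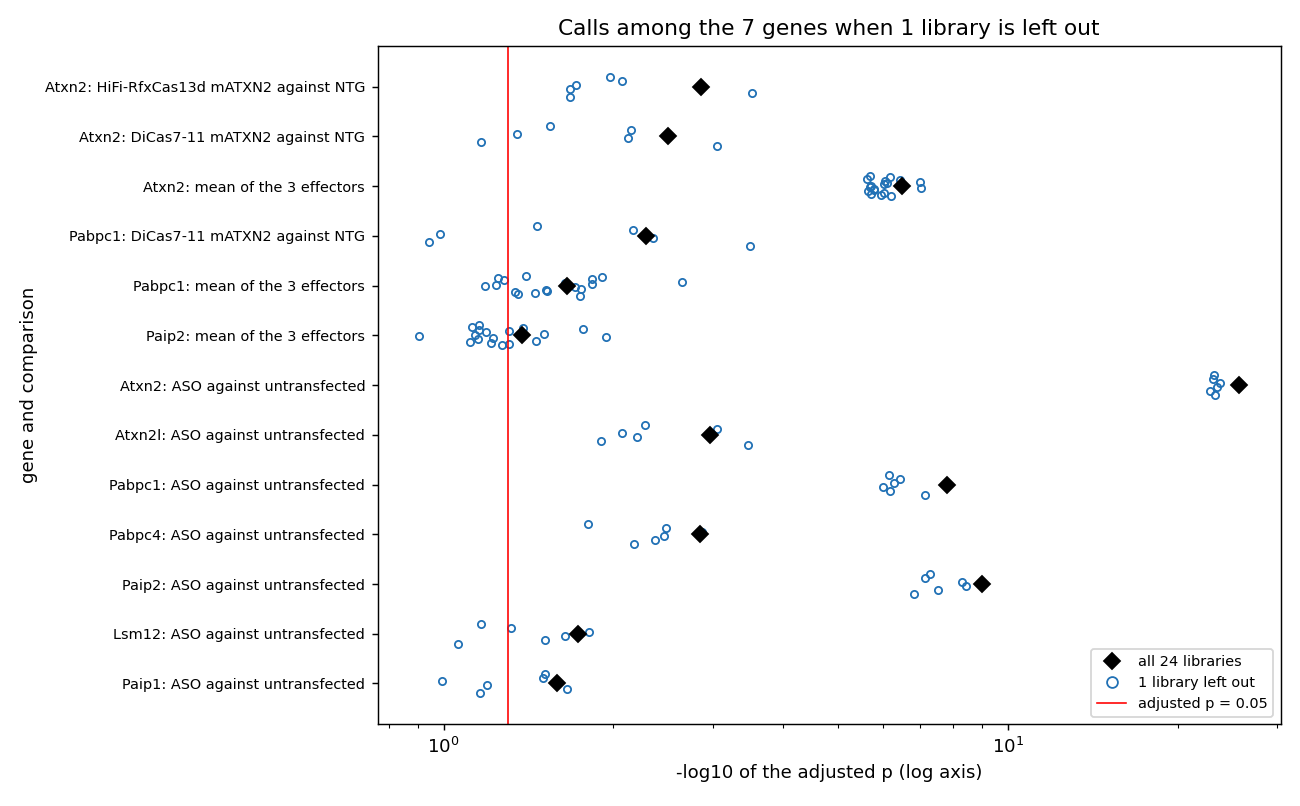
Minus log10 of the adjusted p (x axis, log scale) for each member called between mATXN2 and NTG or with the ASO (y axis). Diamonds use all 24 libraries, circles leave 1 library out, and the red line is an adjusted p of 0.05. Calls of the NTG groups against untransfected cells are not drawn. The calls of Atxn2, Atxn2l, Pabpc1, Pabpc4 and Paip2 with the ASO stay past the line in all 6 omissions, and those of Paip2 on average over effectors stay past it in 7 of 18.

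The rest of the pathway gives the setting for these changes. It was taken as 78 genes in 5 lists: other poly(A)-binding proteins and their regulators, cap-binding and scanning factors, deadenylases and their adaptors, other LSm-domain proteins, and other proteins reported to bind ataxin-2 or ataxin-2-like. Of the 71 genes tested, 8 passed on average over the effectors with the mATXN2 crRNA, 2 higher and 6 lower, where 5.38% of all genes passed and 2.38% were lower. The median log2 fold change was -0.01 against -0.00 over all genes. By effector 1 passed with RfxCas13d (1.5% of all genes), 0 with HiFi-RfxCas13d (7 at an unadjusted p under 0.05, which 7.1% of all genes reached, with 0 called by DESeq2 and 2 by limma-trend) and 3 with DiCas7-11 (0.95% of all genes). With DiCas7-11 the count became 10 without NTG replicate 1 and 0 without NTG replicate 2 or any 1 of the 3 mATXN2 samples, and with RfxCas13d it became 0 in 5 of the 6 omissions, so neither count is stable. On average it became 15 without DiCas7-11 NTG replicate 1 and was 7 to 11 without any other DiCas7-11 sample.

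Among the regulators of poly(A)-binding proteins 2 of 10 passed on average over the effectors, 1 higher and 1 lower, beside 5.38% of all genes. With the ASO 3 of 10 were higher and 1 lower, near the 42.7% of all genes called there.

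Of the deadenylases and adaptors, which shorten poly(A) tails, 2 of 19 passed on average, beside 5.38% of all genes: Tnrc6b, a scaffold of miRNA silencing that recruits deadenylases, rose by 0.12 ± 0.03 (adjusted p = 0.0151), and Pan3, the adaptor of the PAN2 deadenylase, fell by 0.09 ± 0.02 (adjusted p = 0.0165). With DiCas7-11 the catalytic subunit Cnot6 fell by 0.11 ± 0.03 (adjusted p = 0.0373), a call lost without NTG replicate 2 (0.259) or 3 (0.128) or any mATXN2 sample (0.0644 to 0.238). The call of Pan3 was lost without DiCas7-11 NTG replicate 2 (0.0553). For Tnrc6b the control side of the mean holds the RfxCas13d NTG samples, which were lower than untransfected cells (-0.15 ± 0.05, adjusted p = 0.0493, edgeR). With the ASO 5 were higher and 3 lower, near the 42.7% of all genes called, and Tob2, which links deadenylases to PABPC1, rose most (0.39 ± 0.06, adjusted p = 3.19e-06).

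Other binders of ataxin-2 were lower where they passed on average, 4 of 17, beside 2.38% of all genes called lower. Cd2ap, an endocytic adaptor, fell by 0.07 ± 0.02 (adjusted p = 0.0121). With DiCas7-11 the stress granule protein G3bp2 fell by 0.13 ± 0.03 (adjusted p = 0.0392), a call lost without NTG replicate 2 (0.375) or 3 (0.103) or any mATXN2 sample (0.0541 to 0.191). With the ASO 4 were higher and 5 lower, beside 42.7% of all genes called, among them the splicing factor Rbfox2 (-0.25 ± 0.03, adjusted p = 3.66e-09).

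Cap-binding factors gave 0 of 12 calls by edgeR and limma-trend on average and 1 by DESeq2 (3 at an unadjusted p under 0.05 by edgeR, which 17.9% of all genes reached), and Eif4ebp2, a repressor of cap-dependent translation, rose with RfxCas13d by 0.20 ± 0.05 (adjusted p = 0.0342), a call kept only without mATXN2 replicate 1 among the 6 omissions (0.0863 to 0.271 in the others). The NTG samples of that comparison were lower in Eif4ebp2 than untransfected cells by a similar amount (-0.21 ± 0.05, adjusted p = 0.00573). With the ASO 1 was higher and 5 lower, where 21% of all genes were called higher and 21.7% lower, and the cap-binding protein Eif4e2 fell by 0.25 ± 0.05 (adjusted p = 9.70e-05). LSm-domain proteins gave 0 of 13 calls on average by edgeR, DESeq2 or limma-trend (3 at an unadjusted p under 0.05 by edgeR) and 3 lower with the ASO, beside 21.7% of all genes, led by Lsm8, a subunit of the nuclear LSm ring (-0.41 ± 0.06, adjusted p = 6.87e-08), and Lsm14b (-0.37 ± 0.03, adjusted p = 2.65e-12).

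Over the 5 lists the ASO moved 30 of 71 genes, 13 higher and 17 lower, with a median log2 fold change of -0.01, beside 42.7% of all genes. In the NTG groups 13 of 71 passed with RfxCas13d, 24 with HiFi-RfxCas13d and 26 with DiCas7-11. With 1 library left out these counts were 8 to 14, 19 to 22 and 17 to 31. With all libraries most were higher (9, 19 and 21, where 5.7%, 10.5% and 11.4% of all genes were called higher). Larp4, an RNA-binding protein that contacts PABPC1 and the poly(A) tail, rose in all 3 (0.15 ± 0.03, 0.19 ± 0.03 and 0.19 ± 0.03, adjusted p = 3.61e-05, 3.96e-07 and 6.99e-07), as did the ubiquitin ligase Cnot4 (0.16 ± 0.04, 0.24 ± 0.04 and 0.20 ± 0.04, adjusted p = 0.00671, 1.49e-05 and 0.000208). The other named genes of the NTG groups were Tob2 (higher, 2 effectors), Tnrc6b (lower with RfxCas13d), Lsm10 (lower) and Lsm6 (higher) with HiFi-RfxCas13d, and Eif4ebp2 (lower), Eif4e2 and the deubiquitinase Usp10 (higher) with DiCas7-11, with sizes of 0.15 to 0.32 on the log2 scale.

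**Figure D5:**
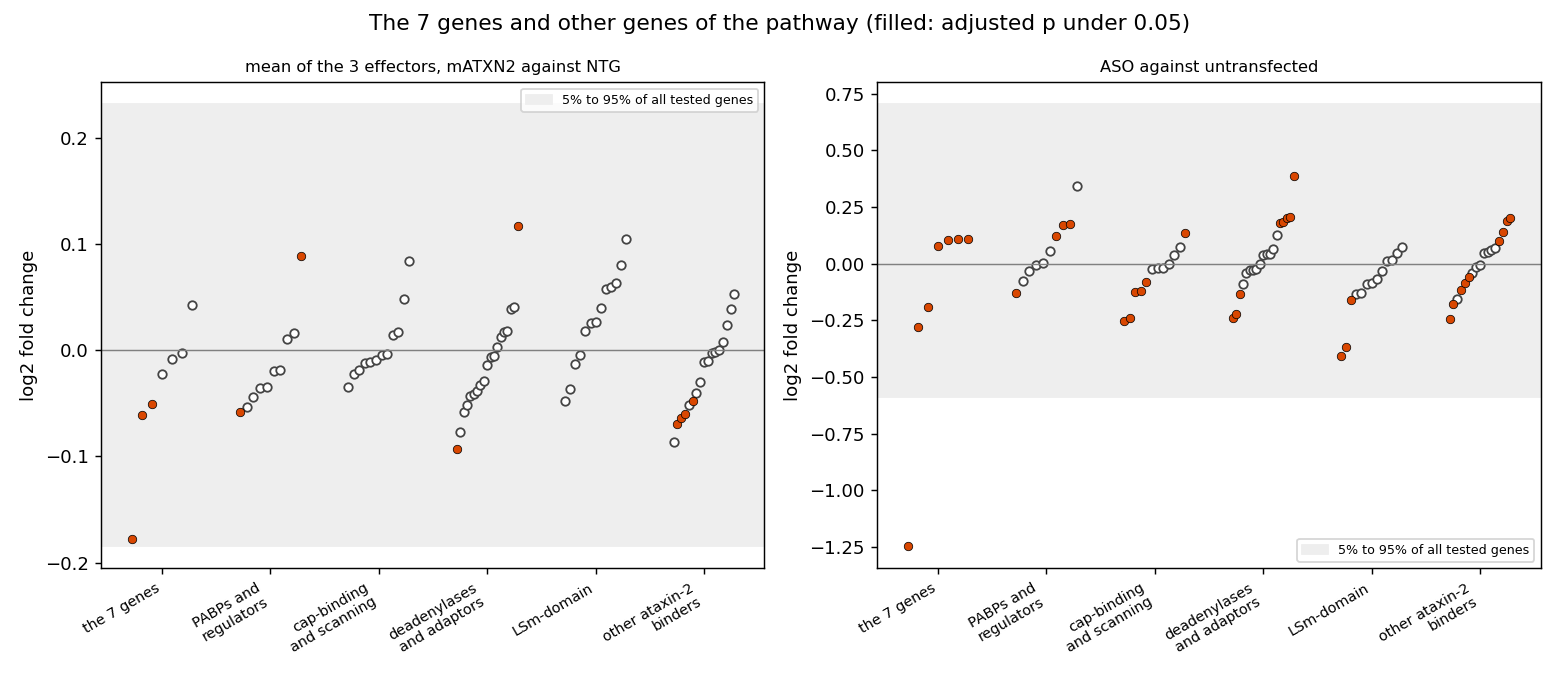
Log2 fold change (y axis) of the 7 genes and of the tested genes in 5 pathway lists (x axis), on average over the effectors (left) and with the ASO (right); each point is a gene, filled points have an adjusted p under 0.05, and the grey band holds 5% to 95% of all genes tested. Atxn2 falls below the band with the ASO (-1.25) and lies near its lower edge on average over the effectors (-0.18), and all other points lie inside it.

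Genes whose levels followed Atxn2 most closely were sought over the 8 group means of log2 CPM, among 10912 other genes with a mean of at least 50 counts. The 5 closest were Cnot6l, a deadenylase subunit that is also in the lists above (Pearson r = 0.994), G2e3 (0.991), Rbpj (0.991), Mdm1 (0.990) and Stx16 (0.990). Over the 24 samples r was 0.865 to 0.968. The ASO group sets much of this likeness, and over the 7 other group means r was 0.829 to 0.937. Their changes with the ASO were smaller than that of Atxn2, from -0.63 for G2e3 to -0.22 for Cnot6l, and 425 genes had an r over 0.9.

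For Atxn2l the 5 closest were Dusp2 (r = 0.969), Rad9a (0.965), Comtd1 (0.961), Zpr1 (0.953) and Prmt1 (0.949), the last an arginine methyltransferase that is listed above among the binders. Only 27 genes had an r over 0.9. Over the 24 samples r was lower, between 0.459 and 0.794. These values describe 8 points from shared libraries and carry no test.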

How the data were processed

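RNA-seq of 24 Neuro2A samples in 8 labelled groups of 3 was analysed. According to the study's methods and labels, the authors quantified single-end reads with Salmon (version 1.5.2) against the NCBI mouse transcriptome (GRCm39) and summarised them per gene with tximport (lengthScaledTPM). The deposited expected counts are raw with respect to depth, and edgeR (version 4.0.16, in R 4.3.3) was given them as whole numbers after rounding. A gene was tested if 3 or more samples reached 0.5 CPM, which left 13899. Libraries were scaled by TMM. A quasi-likelihood model with 1 mean for each of the 8 groups used all samples, so every comparison shares an estimate of the spread. The Benjamini-Hochberg adjustment ran over all tested genes, separately for each comparison, and the threshold was 0.05. Errors of log2 fold changes are SE, and intervals are at 95% confidence. Levels are TMM-scaled CPM, whose precision is limited by counting error and by the spread of 3 samples.

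The ratio and the sum of the paralogs were tested by exact permutation over samples. Lengths and 31-base words came from GENCODE M21 (GRCm38), another build than that of the files, so no coordinates are given. Of the tested genes 87.3% had a coding length there. Overlapping genes came from a RefSeq table. Named genes were the 7 members, the list genes past the threshold (at most 5 with the largest change per comparison, otherwise the 1 with the lowest p), and 5 genes of like pattern each for Atxn2 and Atxn2l. Some list genes that this rule names are not reported here. The members and lists were chosen with earlier results of these data known. Alternatives were DESeq2 (version 1.42.0) as a test and as a scaling, limma-trend (version 3.58.1) after the study, with p-values adjusted over its 10 comparisons together where it made the comparison, no filter, a replicate block, a coding length correction, only the groups compared, and leaving out each library. Scripts were tested on simulated data. The names of the arms differ between the columns of the table and the labels, and were matched by effector, arm and replicate number. Sequences of the crRNAs and the ASO were not used here.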

Additional observations from a re-analysis of the deposited data

Results flagged for a closer look

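Pabpc4, the second cytoplasmic poly(A)-binding protein, had samples on opposite sides of the same untransfected cells in 2 NTG groups. Its log2 fold change was 0.15 with HiFi-RfxCas13d, where all 3 samples lay above the untransfected ones (adjusted p = 0.000114, edgeR), and -0.050 with DiCas7-11, where all 3 lay below without passing the test (adjusted p = 0.230). The NTG groups differed directly by 0.20 ± 0.03 (adjusted p = 1.77e-05, edgeR), a comparison added after the data were seen, and the difference was 0.19 to 0.22 with any of the 6 libraries left out (adjusted p at most 0.000969). Of the transcript words of Pabpc4 79.4% occur in other annotated genes, and the part of this in the difference was not tested. The SD of Pabpc4 was 2.99 CPM in the NTG samples of DiCas7-11, 4.37 CPM in those of HiFi-RfxCas13d and 6.62 CPM in those of RfxCas13d.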

How the results depend on the processing

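The calls of Atxn2 with HiFi-RfxCas13d, on average over the effectors and with the ASO held in every alternative run, as did those of Pabpc1, Pabpc4 and Paip2 with the ASO. That of Atxn2l with the ASO was lost against the mean of the NTG groups (0.04, adjusted p = 0.150 by edgeR) and held in the others. For Atxn2 with DiCas7-11 the value was -0.20 with only the groups compared, where the call was lost, and -0.22 to -0.18 with 1 library left out.

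Counts of called members moved as follows. With RfxCas13d 0 became 1 (Paip2) under the coding length correction, only the groups compared, DESeq2 and limma-trend adjusted over 10 comparisons together. With DiCas7-11 2 became 0 with only the groups compared and 0 to 3 with 1 library left out. With 1 library left out the average over effectors gave 1 to 3, RfxCas13d NTG against untransfected cells 0 to 1 and HiFi-RfxCas13d NTG 2 to 4.

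Differences near 0 changed sign. Pabpc4 with RfxCas13d was -0.00098 with DESeq2 size factors, -4.3e-06 without the filter, -0.0014 with DESeq2, and -0.028 to 0.022 with 1 library left out, and its average over effectors was 0.0029 with the coding length correction. With 1 library left out Pabpc4 with HiFi-RfxCas13d ranged from -0.010 to 0.022, Pabpc1 with RfxCas13d from -0.010 to 0.012, Paip2 with HiFi-RfxCas13d from -0.044 to 0.020, Lsm12 on average from -0.019 to 0.012 and Atxn2 in RfxCas13d NTG against untransfected cells from -0.027 to 0.0032. Paip1 with the ASO was -0.035 against the mean of the NTG groups. The summed paralogs with RfxCas13d differed by 0.224 per coding length, and by -4.39 to 3.02 CPM with 1 library left out. Their average over effectors ranged from -7.82 to -3.51 CPM, and passed the threshold without RfxCas13d mATXN2 replicate 1 (-7.33 CPM, exact permutation test, adjusted p = 0.03). The cause of these changes was not tested.

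The labels give the groups the same replicate numbers without saying that they mark a shared day, and 3 of 21 same-numbered pairs correlated above 0.1 in their deviations (-0.11 to 0.24), so the numbers were not taken as pairs. With the replicate block Atxn2 was -0.23 with HiFi-RfxCas13d, -0.20 with DiCas7-11 and -0.10 with RfxCas13d, and no call of a member was lost. The block gained 2, Pabpc1 with RfxCas13d NTG (adjusted p = 0.0417, edgeR) and Lsm12 with HiFi-RfxCas13d NTG (adjusted p = 0.0226). Over all genes it moved the count of calls with RfxCas13d from 209 to 319, with HiFi-RfxCas13d from 28 to 43 and with DiCas7-11 from 132 to 304, and between DiCas7-11 and RfxCas13d from 0 to 10.

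Over all genes the calls with RfxCas13d, HiFi-RfxCas13d and DiCas7-11 were 329, 118 and 290 without the filter, 274, 67 and 287 with DESeq2, 464, 125 and 7 with only the groups compared, and 707, 270 and 635 with limma-trend adjusted over 10 comparisons together, which changes the test and the adjustment at once. With 1 library left out they were 51 to 149, 6 to 16 and 8 to 682, and 560 to 1137 on average against 748. With only the groups compared DiCas7-11 NTG gave 2006 calls against 3080. The comparisons of responses gave 9, 16 and 14 calls without the filter. The coding length correction moved the calls from 135 higher and 74 lower to 66 and 88 with RfxCas13d, from 26 and 2 to 18 and 4 with HiFi-RfxCas13d, from 67 and 65 to 56 and 114 with DiCas7-11, and from 417 and 331 to 262 and 389 on average. With limma-trend adjusted in that way HiFi-RfxCas13d gave 216 higher and 54 lower.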
